A study of Mus musculus with 3 samples.

Results

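Described here are 30 genes of the interferon response and antigen presentation in cells of the mouse patellar tendon, chosen from a list of symbols. All 30 symbols were found once among the 32288 features of the 3 deposited matrices. They fall into 4 transcription factors (Stat2, Irf1, Irf7, Irf9), 11 IFIT and other antiviral effectors (Ifit1, Ifit2, Ifit3, Isg15, Usp18, Rsad2, Oasl2, Xaf1, Rtp4, Ifi27, Ifi27l2a), 4 membrane restriction factors (Bst2, Ifitm1, Ifitm2, Ifitm3), 2 guanylate-binding proteins (Gbp2, Gbp7), 2 PYHIN proteins (Ifi203, Ifi205) and 7 genes of class I presentation (H2-D1, H2-K1, B2m, Psmb8, Psmb9, Tap1, Tap2). On GRCm38, 6 of the 7 presentation genes lie in the major histocompatibility complex on chromosome 17, between the start of H2-K1 at 33996017 and the end of H2-D1 at 35267499. Ifit1, Ifit2 and Ifit3 are neighbours on chromosome 19, and Ifi203 and Ifi205 on chromosome 1.

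Interferons are secreted signals, and cells release those of type I on sensing foreign nucleic acid. The type I and type II receptors activate STAT and IRF transcription factors, which switch on many interferon-stimulated genes, among them antiviral effectors, guanylate-binding GTPases, nucleic acid sensors of the PYHIN family and the machinery that loads peptides on MHC class I molecules for display to T cells. Most cells, fibroblasts included, keep a low tonic level of these genes without infection, and MHC class I is carried by nearly all nucleated cells.

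The cells came from wild-type mice. The 2 libraries of mice aged 20 weeks are called 20-week replicate 1 and 20-week replicate 2, and 1 library came from mice aged 2 weeks. Tendons were digested with collagenase, cells of the blood lineages and the endothelium removed by sorting, and transcripts counted as unique molecular identifiers (UMIs) with a 10x Genomics 3' kit. The strain, the sex and the number of animals per library are not given, so the variation between these few libraries may be technical. In the tests by age, a p-value rests more on variation pooled over genes than on a gene's own spread between libraries.

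The 20-week libraries were much smaller than the 2-week library: 606 and 1007 cells in replicates 1 and 2, against 4767 at 2 weeks, with median UMIs per cell of 2822 and 5132, against 6480. Between 2 and 5 barcodes of a library also occurred in another library. The cell mix differed too. Progenitor-like cells were 26.7% and 53.4% of the cells in 20-week replicates 1 and 2, against 17.4% at 2 weeks, and muscle fibre-like cells were 8.24% of replicate 2. Blood and endothelial markers were scarce in 20-week replicate 1 and at 2 weeks, but less so in replicate 2. Cells with a UMI of any of 5 such markers were 6 of 606 and 82 of 1007 in the 20-week replicates, against 56 of 4767. Ptprc had 0 and 71 UMIs in 20-week replicates 1 and 2, against 2 at 2 weeks, and Pecam1 had 0 and 35, against 19. The 71 Ptprc UMIs went with 740 UMIs of Cd79a, a B-cell receptor subunit, in replicate 2.

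The interferon-stimulated response element (ISRE), bound by the STAT and IRF factors of type I signalling, was read here as GAAA, any 2 bases and GAAA again, on either strand. It was searched in the 250 bases upstream of each start in the RefSeq promoters of GRCm38.p6. It occurred in 2.98% of 32851 promoters, and in at least 1 promoter of 12 of the 25 genes of the group with an entry. Those were Stat2, Ifit1, Ifit3, Isg15, Rsad2, Bst2, Ifitm2, Gbp2, Gbp7, Ifi203, Ifi205 and B2m. The GAS element of type II signalling, read as TTCNNNGAA, occurred in 7.02% of all promoters and in those of 5 of the 25 genes. The 2 motifs overlapped in 1 promoter of the group and in 18 of all promoters. A match is a description of these letters and not evidence of binding. Of the 4 promoters shown first below, those of Isg15, Gbp2 and Ifi205 are of genes that passed a test between ages or cell classes. Ifit3 passed none of the main tests. The promoter of H2-D1 is shown as one without a match of that spelling. Capitals mark the ISRE.
Isg15 (chr4:156200819-156201068, minus strand): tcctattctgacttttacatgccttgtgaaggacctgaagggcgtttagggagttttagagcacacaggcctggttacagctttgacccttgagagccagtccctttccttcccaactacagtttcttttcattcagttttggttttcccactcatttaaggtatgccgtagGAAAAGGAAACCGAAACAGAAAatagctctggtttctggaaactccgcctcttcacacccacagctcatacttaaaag
Ifit3 (chr19:34583279-34583528, plus strand): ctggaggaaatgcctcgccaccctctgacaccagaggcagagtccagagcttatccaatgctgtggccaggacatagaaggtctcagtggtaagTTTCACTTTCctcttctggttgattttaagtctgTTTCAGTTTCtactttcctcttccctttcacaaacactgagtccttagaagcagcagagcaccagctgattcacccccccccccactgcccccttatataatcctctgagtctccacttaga
Gbp2 (chr3:142620413-142620662, plus strand): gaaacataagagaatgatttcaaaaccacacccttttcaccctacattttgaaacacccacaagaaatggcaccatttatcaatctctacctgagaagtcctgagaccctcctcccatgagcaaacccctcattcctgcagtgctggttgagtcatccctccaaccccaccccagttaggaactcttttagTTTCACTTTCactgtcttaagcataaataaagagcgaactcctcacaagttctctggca
Ifi205 (chr1:174031756-174032005, minus strand): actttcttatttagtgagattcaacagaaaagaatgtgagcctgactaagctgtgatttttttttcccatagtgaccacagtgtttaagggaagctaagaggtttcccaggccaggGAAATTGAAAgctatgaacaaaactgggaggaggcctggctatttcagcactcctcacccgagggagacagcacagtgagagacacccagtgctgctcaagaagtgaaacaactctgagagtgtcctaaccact
H2-D1 (chr17:35262844-35263093, plus strand): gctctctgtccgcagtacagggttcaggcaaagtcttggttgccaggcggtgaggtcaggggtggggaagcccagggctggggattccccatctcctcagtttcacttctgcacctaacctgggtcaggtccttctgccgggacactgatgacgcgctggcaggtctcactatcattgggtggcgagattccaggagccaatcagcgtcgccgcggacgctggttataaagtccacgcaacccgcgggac
The H2-D1, Gbp2 and Ifi205 windows, placed on the RefSeq start, reach into the gene as GENCODE draws it, and the Gbp2 match starts inside that gene. In Isg15 the matches start 78, 72 and 66 bases before the transcription start and run into each other. In Ifit3 they start at 156 and 122 bases, in Gbp2 at 59 and in Ifi205 at 134 bases before it.

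Cell classes were made for this report by clustering without the 30 genes, so the members' levels did not directly define the classes. The other pathway genes read below were left out too, as were symbols beginning with H2-, Ifi, Ifn, Gbp, Irf, Oas or Isg. Genes outside these lists that respond to interferon could still enter. Progenitor-like cells, with Pi16 among the leading genes of their 3 clusters and Cd55 among those of 2, numbered 162 and 538 in 20-week replicates 1 and 2 and 829 at 2 weeks. Mural-like cells, the contractile cells around vessels, numbered 44 and 35 in the 20-week replicates and 662 at 2 weeks. Tenocyte-like cells, the tendon fibroblasts marked by Tnmd and Scx, numbered 12 and 49 in the 20-week replicates and 653 at 2 weeks. An unnamed cluster led by Mmp3, Cxcl14 and Lpl, called cluster 10, held 89 and 45 cells of the 20-week replicates and 132 of the 2-week library.

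**Figure D1:**
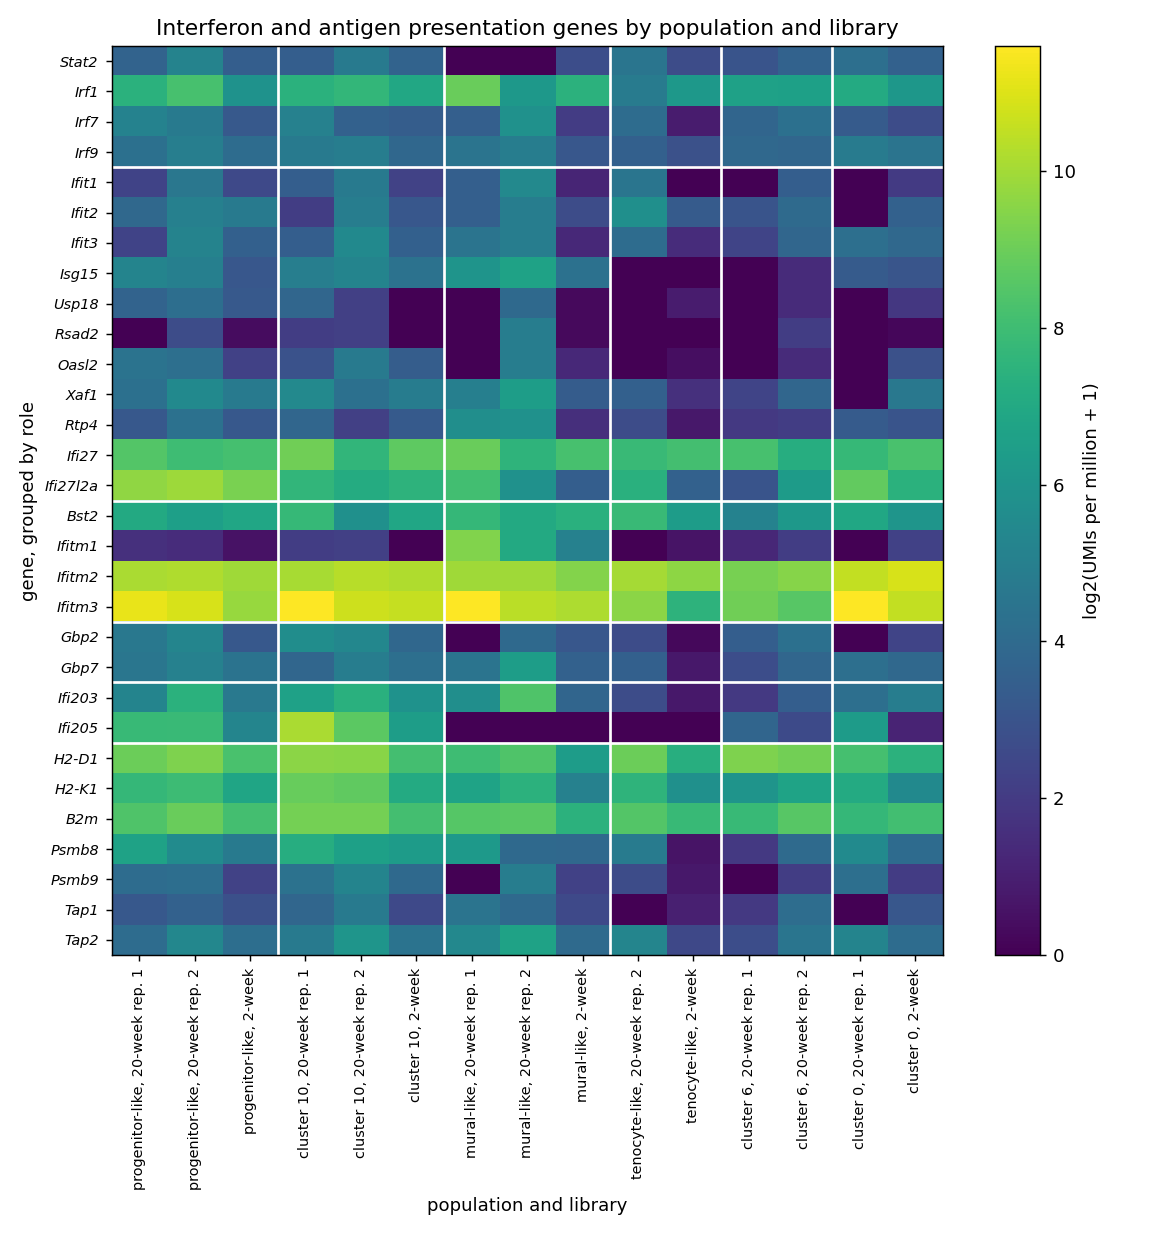
Heat map of the 30 genes (rows, grouped by role) in 6 populations, with the 20-week libraries left of the 2-week library in each (columns); colour is log2 of CPM without TMM plus 1, and populations of under 20 cells in a library are left out. Ifi205 is at 0 in every mural-like and tenocyte-like column, and Ifitm1 is higher in each mural-like column than in any other column drawn.

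Over all cells, the group was higher at 20 weeks than at 2 weeks in most of its genes, but with 2 libraries against 1 no single gene passed the threshold. Of the 30 genes, 13 were at least 2-fold higher in both 20-week libraries than in the 2-week library, against 4.2% of all 13155 genes tested, and 0 were at least 2-fold lower in both, against 6.23%. The median log2 change was 1.42 over the 30 genes and 0.03 over all genes. By edgeR's quasi-likelihood test with Benjamini-Hochberg adjustment, 0 of 30 were called, where 0.0228% of all genes were called higher and 0.122% lower. At an unadjusted p under 0.05 there were 12 higher (4.43% of all genes) and 0 lower (4.38%), and DESeq2 called 4 higher (122 of 13155 genes). The libraries' cell mixes differ, and in such sums a changed share of a cell type cannot be told apart from a changed level within it.

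Ifi205, a PYHIN protein of the mouse family related to DNA sensors, stood furthest apart. It had 304 and 144 CPM (UMI counts relative to the library's total, scaled by the TMM method) in 20-week replicates 1 and 2, against 10.6 at 2 weeks. Both 20-week libraries lay far above the 2-week library, and the log2 change was 4.39 ± 0.78 (SE; edgeR adjusted p = 0.151). This SE and those below were derived from the log2 change and the F statistic of the edgeR test, so they restate that test. Gbp2, an interferon-induced GTPase, had 22.5 and 27.2 CPM in the 20-week replicates and 5.12 at 2 weeks (log2 change 2.29 ± 0.48, adjusted p = 0.231). Irf7, the factor that amplifies type I interferon production, had 24.4 and 17.4 CPM, against 4.33 at 2 weeks (2.25 ± 0.53, adjusted p = 0.267).

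The class I heavy chains differed less, and by about as much in both replicates. H2-D1 had 665 and 569 CPM in the 20-week replicates, against 180 at 2 weeks (log2 change 1.78 ± 0.65, adjusted p = 0.48). H2-K1 had 210 and 224 CPM, against 60.6 (1.84 ± 0.55, adjusted p = 0.391). B2m, the light chain shared by all class I molecules, differed less, at 374 and 437 CPM in the 20-week replicates and 237 at 2 weeks. Psmb8, a subunit of the immunoproteasome, had 72.7 and 53.0 CPM, against 15.03 (2.06 ± 0.46, edgeR adjusted p = 0.252). Psmb9, its partner subunit, had 10.3 and 24.1 CPM, against 3.45. The peptide transporter genes differed less: Tap1 had 8.36 and 11.7 CPM, against 5.18, and Tap2 18.0 and 32.9, against 14.1. In replicate 2, a set of 66 cells in cluster 16 gave 72 of its 148 Psmb9 UMIs and 120 of its 325 Psmb8 UMIs. At a clustering resolution of 1.0 a cluster of 66 cells of this library was named B lineage-like. With the 6 and 82 cells of the 20-week replicates and the 56 of the 2-week library that had a UMI of 5 blood or endothelial markers left out, edgeR called 3 of the 30 genes higher: Ifi205 (log2 change 4.44, adjusted p = 0.0126), Gbp2 (2.30, adjusted p = 0.0433) and Irf7 (2.32, adjusted p = 0.0457). Of all 12883 genes tested in that setting, 69 were called higher and 134 lower. Psmb8 was then at 1.85 (adjusted p = 0.113).

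Not every gene of the group was higher. Ifitm2, which restricts virus entry, had 1045 and 869 CPM in the 20-week replicates, against 1063 at 2 weeks. Ifi27, a mitochondrial interferon-induced protein, had 412 and 180 CPM, against 275, and Bst2 (tetherin) had 124 and 71.1, against 86.7. For these genes the 20-week libraries lay on both sides of the 2-week library, or all 3 were close. Ifitm1 had 47.0 CPM in 20-week replicate 1, 3.26 in replicate 2 and 8.15 at 2 weeks, so its sign hung on which library was used: without replicate 1 the log2 ratio was -1.28. That of Ifi27 was -0.60 without replicate 1.

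Ifit1, Ifit3, Rsad2 and Stat2 rested on replicate 2. Ifit1, a reader of foreign RNA caps, had 3.86 CPM in 20-week replicate 1 and 16.5 in replicate 2, against 2.12 at 2 weeks. Ifit3 had 8.36 and 23.8 CPM, against 6.36, and Stat2, the partner of Irf9 in the ISRE-binding complex, 10.3 and 24.1, against 8.21. Rsad2 (viperin) had 1 and 24 UMIs in the 20-week replicates and 11 at 2 weeks. In replicate 1, the library of the lowest depth, these genes were under 2-fold above the 2-week level.

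Isg15 had 23.8 and 20.5 CPM in the 20-week replicates, against 9.21 at 2 weeks (log2 change 1.26 ± 0.46, edgeR adjusted p = 0.479), and was over 2-fold higher in both. Of the remaining effectors and factors, Usp18, which removes this ubiquitin-like modifier from proteins, had 6.43 and 10.3 CPM in the 20-week replicates, against 2.58 at 2 weeks. Rtp4, a chaperone with antiviral activity, had 10.9 and 12.6 CPM, against 4.09. Both were at least 2-fold higher in both 20-week libraries. Irf9, the DNA-binding subunit of the ISRE complex, had 20.6 and 24.3 CPM, against 12.6, and Ifit2 had 9.01 and 22.99, against 11.5, with the 20-week libraries on both sides of the 2-week library.

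Among the other genes of the pathway, none passed in sums over all cells. That holds for 9 receptors and kinases, 5 negative regulators, 13 sensors and adaptors, 31 other interferon-stimulated genes, 15 other class I genes and 5 class II genes tested. None of the 7 ligand genes listed, Ifnb1 and Ifng among them, had enough UMIs to be tested in any comparison.

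**Figure D2:**
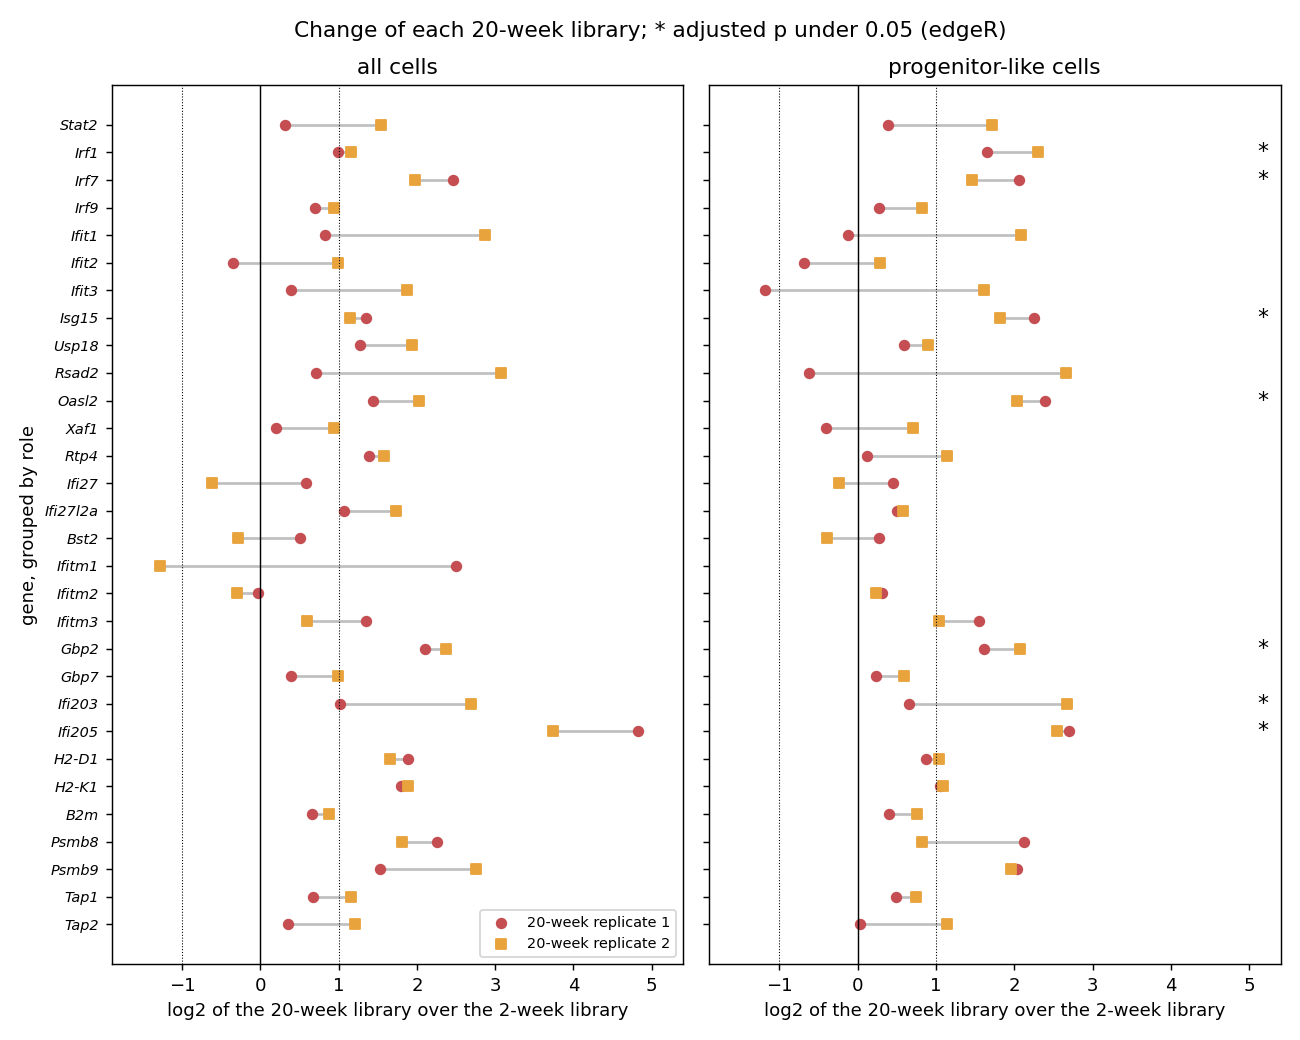
Log2 ratio of each 20-week library over the 2-week library (horizontal axis, prior count 2) for the 30 genes (vertical axis), in sums over all cells (left) and over progenitor-like cells (right); dotted lines mark 2-fold and stars an adjusted p under 0.05 by edgeR, which 7 genes reach in progenitor-like cells and none over all cells. The 2 points of Gbp2, Irf7 and the class I heavy chains lie close together, and those of Ifit1, Ifit3 and Rsad2 far apart.

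When the mural-like, chondrocyte-like, myogenic-like and muscle fibre-like clusters and those led by Casq2, by Bglap or by cell cycle genes were left out with 1 cluster of under 20 cells, a choice made after seeing the data, 543 and 786 cells of the 20-week replicates and 3102 of the 2-week library remained. The mix in this pool also differed: progenitor-like cells were 162 and 538 of these cells in the 20-week replicates and 829 at 2 weeks, cluster 6, led by Spp1 and Ibsp, 228 and 120, against 15, and cluster 0, led by Igfbp3 and Sfrp2, 42 and 16, against 1125. Ifi205 had 1.25 CPM without TMM in cluster 0 at 2 weeks and 37.4 in progenitor-like cells at 2 weeks, and the part of the mix in the calls was not tested. In these fibroblast clusters, 5 of 30 genes were called higher at 20 weeks (1.86% of all genes) and 0 lower (1.99%): Isg15, Irf7, Gbp2, Ifi205 and Ifi203. At an unadjusted p under 0.05 there were 17 higher (6.05%) and 0 lower (6.31%), and at least 2-fold in both 20-week libraries 11 higher (4.6%) and 0 lower (6.07%). Ifi205 had 324 and 173 CPM in the 20-week replicates and 15.9 at 2 weeks (log2 change 3.97 ± 0.72, edgeR adjusted p = 1.62e-04). Gbp2 had 24.0 and 30.5 CPM, against 5.16 (2.41 ± 0.51, adjusted p = 0.00159). With size factors by relative log expression in place of TMM, 0 of the 5 passed (17 of 12364 genes higher), and with DESeq2 1 did (131 of 12364). Of 29 other interferon-stimulated genes tested in this pool, edgeR called 6 higher (1.86% of all genes) and 0 lower (1.99%). They were Isg20, Parp14, Trim30a, Iigp1, Ifi207 and Sp100. None of the other pathway lists had a call here.

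In progenitor-like cells, 7 of the 29 genes tested rose at 20 weeks at an adjusted p under 0.05, where 2.56% of all 11396 genes were called higher, and 0 fell (1.72%). At an unadjusted p under 0.05 there were 13 higher (6.27%) and 0 lower (5.05%), and DESeq2 called 2 higher (102 of 11396 genes). The 7 were the transcription factors Irf1 and Irf7, the effectors Isg15 and Oasl2, the GTPase Gbp2 and both PYHIN genes. At least 2-fold in both 20-week libraries were 9 genes (4.81% of all genes), and 0 were lower by as much (4.48%). Of the 7 calls, sums thinned to the smallest left Ifi205 (117 of 7003 genes higher). Clustering at resolution 1.0 gave 3 calls (171 of 9788 genes higher). There the progenitor-like cells were 119 and 228 of the 20-week replicates and 757 at 2 weeks. A further 312 cells of replicate 2 were in an unnamed cluster led by Hmcn2, Fmo2 and Meox1. The median log2 change was 1.07 over the 29 genes and 0.01 over all genes. The progenitor-like cells of the ages came from different clusters: 130 of 162 and 535 of 538 cells of the 20-week replicates were in cluster 1, and 646 of 829 cells of the 2-week library in cluster 2. Of 8 markers of T and NK cells, and likewise of 8 of neutrophils, 0 had a UMI in these cells in any library, and Ptprc had none. The summed level of 8 macrophage markers was 12.1 and 6.91 CPM without TMM in the 20-week replicates (3 and 6 of 8 with a UMI), against 2.58 at 2 weeks (5 of 8), and its part in the changes was not tested. Of 8 B-lineage markers, Ebf1 was found in most progenitor-like cells of each library. The other 7 had 2 and 7 UMIs in the 20-week replicates (2 and 4 of 7 with a UMI), or 4.04 and 2.10 CPM without TMM, against 212 at 2 weeks (3 of 7), or 34.2 CPM. Of those 212, 200 were of Ighm, while Cd79b, Vpreb3 and Igll1 were at 0 in all 3 libraries, and their part was not tested either.

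Ifi205 again had the lowest p of the group. It had 112 and 765 UMIs in progenitor-like cells of 20-week replicates 1 and 2 and 232 at 2 weeks, or 244 and 218 CPM, against 36.9. The 20-week libraries were close to each other and both stood above the 2-week library (log2 change 2.64 ± 0.62, edgeR adjusted p = 0.00171). This call also held in each of 8 alternative settings, with adjusted p between 7.84e-04 and 0.0104. Ifi203, its neighbour and relative, had 39.2 and 160 CPM in the 20-week replicates, against 24.7 at 2 weeks (2.09 ± 0.56, adjusted p = 0.00989), and was under 2-fold higher in replicate 1. Related PYHIN genes share sequence, as do Ifit3 and Ifit3b, Ifi27l2a and Ifi27l2b, the Ifitm genes and the class I heavy chains, and how reads shared by such copies were counted makes their levels uncertain.

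Isg15 had 18 and 102 UMIs in progenitor-like cells of the 20-week replicates and 49 at 2 weeks. In CPM these were 39.2 and 29.1, against 7.79 (log2 change 2.07 ± 0.56, adjusted p = 0.0114). The UMIs sat in few cells: in replicate 1, 7 of 162 cells had any and the highest 2 cells held 11 of the 18. In replicate 2, 40 of 538 cells had any, and at 2 weeks 19 of 829, with 21 of the 49 UMIs in 1 cell.

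Irf1, the factor that drives class I and GBP genes, had 183 and 286 CPM in the 20-week replicates and 57.6 at 2 weeks (2.04 ± 0.60, adjusted p = 0.0262). Its UMIs were spread over 45 and 248 cells of the 20-week replicates, and over 205 at 2 weeks. Gbp2 had 26.1 and 35.9 CPM, against 8.11 (1.98 ± 0.56, adjusted p = 0.0161). Oasl2, of the oligoadenylate synthetase family, had 21.8 and 16.8 CPM, against 3.66 (2.33 ± 0.68, adjusted p = 0.0233), and Irf7 37.0 and 24.2 CPM, against 8.43 (1.78 ± 0.57, adjusted p = 0.0475). For all 4 genes both 20-week libraries stood above the 2-week library. The call of Irf7 was lost in 5 of 8 other settings, that of Oasl2 in 4, that of Gbp2 in 3 and that of Irf1 in 2, and of the genes above, those of Ifi203 and Isg15 were lost in 3 and 2. Counts were low in replicate 1, with 10 UMIs of Oasl2, 12 of Gbp2 and 17 of Irf7.

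The other genes in progenitor-like cells missed the threshold. H2-D1 had 548 and 612 CPM in the 20-week replicates, against 299 at 2 weeks (log2 change 0.96 ± 0.62, edgeR adjusted p = 0.674), and H2-K1 had 228 and 235, against 110 (1.07 ± 0.58, adjusted p = 0.5). The immunoproteasome genes came closer, Psmb9 at 2.13 ± 0.69 (adjusted p = 0.0565) and Psmb8 at 1.55 ± 0.53 (adjusted p = 0.0792). Ifitm3, which blocks viral fusion, had 2592 and 1822 CPM, against 888 (1.31 ± 0.70, adjusted p = 0.5). Ifit3 had 4.35 CPM in replicate 1 and 33.9 in replicate 2, against 10.7 at 2 weeks, and Xaf1 had 19.6 and 42.7, against 26.1. Without replicate 2, the log2 ratio was -1.16 for Ifit3 and -0.38 for Xaf1. Ifitm1 had too few UMIs to be tested here, with 1 and 6 in the 20-week replicates and 3 at 2 weeks.

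Among the other genes of the pathway in progenitor-like cells, 3 of 28 interferon-stimulated genes tested were higher at 20 weeks and 0 lower. They were Gbp6, Ifi207, a further PYHIN gene, and Sp100, a nuclear body protein. Ifi207 had 109 and 198 CPM in the 20-week replicates and 21.8 at 2 weeks, while Sp100 had 4.35 and 35.6, against 4.61, so that its call rests on replicate 2. Of 13 other class I genes, 1 was called: H2-T23, a non-classical class I molecule, at 45.7 and 150 CPM, against 30.4. None of 9 receptors and kinases, 5 negative regulators, 13 sensors and adaptors and 1 class II gene tested was called.

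Since the progenitor-like clusters differ by age, values were also read within clusters that both ages share at this resolution. At resolution 1.0, clusters with leading genes in common with clusters 10 and 12 divided by age: a cluster led by Mmp3 and Cxcl13 held 102 and 44 cells of the 20-week replicates and 10 of the 2-week library, one led by Car3 and C4b held 153 cells of the 2-week library alone, and one led by Akr1c18 and Smpd3 held 172 of it alone. Cluster 12 held 24 cells of 20-week replicate 1 and 173 of the 2-week library, too few libraries for a test. Ifi205 had 24 and 134 UMIs there, or 341 CPM in replicate 1 and 93.2 at 2 weeks, on CPM without TMM. Isg15 had 16 UMIs in replicate 1 and 11 at 2 weeks, or 227 and 7.65 CPM, so that 16 of the 18 Isg15 UMIs of replicate 1 came from these 24 cells. The 130 cells of replicate 1 in cluster 1 had the other 2, or 5.04 CPM, and the 535 cells of replicate 2 there had 102, or 30.8 CPM. Cluster 10, with 89 and 45 cells of the 20-week replicates and 132 at 2 weeks, allowed a test, added after seeing the data. There 0 of 18 genes tested were called in either direction (edgeR; 1.12% of all genes higher and 0.789% lower), 2 were higher (4.5%) and 0 lower (3.96%) at an unadjusted p under 0.05, and DESeq2 called 0.

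In cluster 10, 4 genes were at least 2-fold higher in both 20-week libraries (4.69% of all genes), and 0 were lower by as much (5%): Ifi205, Gbp2, H2-D1 and H2-K1 were the higher ones. Ifi205 had 1439 and 364 CPM in the 20-week replicates, against 92.9 at 2 weeks (log2 change 3.27 ± 1.24, adjusted p = 0.219). H2-D1 had 982 and 669 CPM, against 298 (1.47 ± 1.12, adjusted p = 0.834), and H2-K1 601 and 391, against 145 (1.78 ± 0.97, adjusted p = 0.657). Of the pathway genes in this cluster, Iigp1, an immunity-related GTPase, was called higher at 42.3 and 126 CPM, against 15.8, and the chemokine Cxcl10 was called lower at 29.6 and 0 CPM, against 115.

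The mural-like cells came from 2 clusters in unlike shares. Cluster 4, led by Actg2 and Tagln, held 17 and 1 cells of the 20-week replicates and 457 at 2 weeks, and cluster 9, led by Rgs5 and Kcnj8, held 27 and 34, against 205. Mural-like cells gave 11 testable genes, of which 0 were called by edgeR (0.129% of all genes higher, 0 lower), with 3 higher (1.84%) and 0 lower (1.07%) at an unadjusted p under 0.05 and 0 by DESeq2. By 2-fold or more in both 20-week libraries, 0 were lower (4.89% of all genes) and 5 higher (4.97%): Ifi27l2a, Ifitm1, Ifi203, H2-D1 and H2-K1. Ifi27l2a had 26 and 4 UMIs in the 20-week replicates and 46 at 2 weeks, or 371 and 61.1 CPM, against 13.3 (log2 change 4.02 ± 1.28, adjusted p = 0.37). Ifitm1 had 914 and 138 CPM, against 44.3 (3.57 ± 1.43, adjusted p = 0.938). The replicates differ several-fold in both genes. H2-D1 was even, at 343 and 351 CPM in the 20-week replicates, against 112 (1.63 ± 1.15, adjusted p = 0.9998), from 24 and 23 UMIs in the 44 and 35 cells.

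Within cluster 9 alone, where no test was made, Ifitm1 had 1334 and 136 CPM without TMM in the 20-week replicates, against 147 at 2 weeks, so that replicate 1 alone stood above the 2-week library. In cluster 4 at 2 weeks it had 2.99 CPM, and it was among the leading genes of cluster 9, although it was not used to form the clusters. H2-D1 had 396 and 316 CPM in cluster 9 of the 20-week replicates, against 143 at 2 weeks, and Ifi27l2a 271 and 60.3, against 6.22. For these genes both 20-week libraries were above the 2-week library within the cluster.

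Tenocyte-like cells could not be tested as planned, since 20-week replicate 1 held 12 of them. Set without a test, replicate 2 over the 2-week library had a median log2 ratio of 1.27 over the 13 genes with enough UMIs, against -0.15 over all genes. H2-D1 had 94 UMIs in 49 cells of replicate 2 and 891 in 653 cells at 2 weeks, or 500 and 215 CPM. Irf1 had 5 UMIs in replicate 2 and 410 at 2 weeks, or 26.6 and 99.0 CPM. Here too the clusters differ: 48 of the 49 cells of replicate 2 were in cluster 8, led by Col22a1 and Tnmd, and 441 of the 653 cells at 2 weeks in cluster 5, led by Angptl7 and Crabp1. Within cluster 8, without a test and on CPM without TMM, H2-D1 had 505 CPM in replicate 2 and 83.6 at 2 weeks, and Irf1 had 27.5 and 22.2. The lower Irf1 level of replicate 2 was thus not seen within the cluster.

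Whether age differences themselves differ between classes was asked by an interaction of age and class. No gene of the group was called: 0 of 30 for progenitor-like minus tenocyte-like cells (0.152% of all genes higher, 0.0714% lower), for mural-like minus tenocyte-like cells (0.0535% and 0.0803%) and for mural-like minus progenitor-like cells (0.17% and 0.33%), by edgeR and by DESeq2. At an unadjusted p under 0.05, 1 gene was higher (2.39%) and 3 lower (1.01%) in the first of these, 0 (1.66%) and 1 (1.7%) in the second, and 3 (1.59%) and 1 (3.27%) in the last. The lowest adjusted p was that of Irf1, whose difference between ages was larger in progenitor-like than in tenocyte-like cells by 3.65 ± 1.10 on the log2 scale (adjusted p = 0.222), a value that includes the tenocyte-like clusters' unlike shares. A call in progenitor-like cells and none in mural-like cells is therefore no measured difference between the classes.

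Between classes, with the library as a block, the group set progenitor-like cells above tenocyte-like cells. Of 30 genes, 9 were called higher in progenitor-like cells (edgeR, 4.79% of 11208 genes) and 0 lower (4.08%): Ifi27l2a, Isg15, Psmb8, Gbp2, Gbp7, Xaf1, Ifi205, Ifi203 and Usp18. At an unadjusted p under 0.05, 17 were higher (9.2%) and 0 lower (8.1%), and DESeq2 called 6 higher (302 of 11208 genes). The count was 8 without 20-week replicate 1 (488 of 11812 genes higher) and 14 without replicate 2 (927 of 12643). It was 2 without the 2-week library (108 of 5063), which holds 653 of the tenocyte-like cells. With all sums thinned to the smallest, of 69103 UMIs, 10 genes could be tested and 0 were called (51 of 1663 genes higher).

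Ifi205 was found in progenitor-like cells of each library and had no UMI in the mural-like and tenocyte-like sums read. It had 112 and 765 UMIs in progenitor-like cells of 20-week replicates 1 and 2 and 232 at 2 weeks. It had 0 UMIs in tenocyte-like cells of replicate 2 and of the 2-week library, and 0 in mural-like cells of all 3 libraries. Put at a floor of 3 counts per library, this made progenitor-like cells at least 14.1-fold higher than tenocyte-like cells in replicate 2 and at least 71.8-fold at 2 weeks, on CPM without TMM. At 2 weeks 131 of 829 progenitor-like cells had an Ifi205 UMI and 0 of 653 tenocyte-like cells, which allows up to 0.459% of cells with a UMI at this depth and sets no limit on cells expressing the gene. The median depth was 7426 UMIs in these progenitor-like cells and 7848 in the tenocyte-like cells. By the median over libraries, Ifi205 was highest in cluster 10, at 402 CPM (range 86.1 to 1132), and next in progenitor-like cells, at 226 CPM (range 37.4 to 230), ranges that overlap. It was among the leading genes of cluster 10, although it was not used to form the clusters. These floors and intervals cover counting error only.

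Ifi27l2a, a small mitochondrial interferon-induced protein, had 896 and 974 CPM in progenitor-like cells of the 20-week replicates and 661 at 2 weeks. In tenocyte-like cells it had 160 CPM in replicate 2 and 15.2 at 2 weeks (log2 difference 3.67 ± 0.80, adjusted p = 0.00613). Isg15 had 40.3, 31.0 and 8.39 CPM in progenitor-like cells of replicate 1, replicate 2 and the 2-week library, and no UMI in tenocyte-like cells of either library. At the floor of 3 counts this was at least 15.2-fold at 2 weeks and at least 1.88-fold in replicate 2. Gbp7 had 24.6, 33.1 and 21.9 CPM in progenitor-like cells in the same order, against 10.6 in replicate 2 and 0.966 at 2 weeks in tenocyte-like cells (3.56 ± 0.72, adjusted p = 0.00341). For these genes each progenitor-like sum stood above the tenocyte-like sum of its library.

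Psmb8 had 114, 47.4 and 26.9 CPM in progenitor-like cells of replicate 1, replicate 2 and the 2-week library, against 26.6 in replicate 2 and 0.725 at 2 weeks in tenocyte-like cells (3.28 ± 0.81, edgeR adjusted p = 0.014). Gbp2 had 26.9, 38.3 and 8.73 CPM in progenitor-like cells, against 5.32 and 0.242 in tenocyte-like cells (4.45 ± 0.96, adjusted p = 0.00542). Xaf1, a pro-apoptotic interferon-induced protein, had 20.2, 45.6 and 28.1 CPM, against 10.6 and 2.90 (2.77 ± 0.60, adjusted p = 0.00597). All 3 were higher in progenitor-like cells in both libraries that hold both classes. Ifi203 had 40.3, 170 and 26.5 CPM in progenitor-like cells, against 5.32 and 0.966 in tenocyte-like cells, from 1 and 4 UMIs (4.63 ± 0.58, adjusted p = 4.37e-05). Usp18 had 13.4, 17.3 and 9.07 CPM, against 0 and 1.21 (2.97 ± 0.90, adjusted p = 0.0476), and its call was lost in 4 of 8 other settings.

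No class I heavy chain and no restriction factor was called between these classes. H2-D1 had 565 and 652 CPM in progenitor-like cells of the 20-week replicates and 321 at 2 weeks, against 500 in replicate 2 and 215 at 2 weeks in tenocyte-like cells (0.42 ± 0.40, adjusted p = 0.768). Ifitm2 had 1037 to 1228 CPM in progenitor-like cells and 1012 and 1082 in tenocyte-like cells. Of the pathway's other genes, 11 of 25 interferon-stimulated genes tested were higher in progenitor-like cells and 0 lower. They were Iigp1, Sp100, Mndal, Ifi207, Parp9, Parp14, Lgals9, Gbp3, Slfn5, Cxcl10 and Phf11d. Also higher were 2 of 12 sensors, Ifih1 (MDA5) and Ifi204, and 1 of 13 class I genes, Psmb10. Ifi204 had 108 and 142 CPM in progenitor-like cells of the 20-week replicates and 95.1 at 2 weeks, against 16.0 in replicate 2 and 0.242 at 2 weeks in tenocyte-like cells.

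In mural-like cells the group moved both ways. Against the mean of the other 2 classes, 3 genes were called higher (Isg15, Ifitm1 and Ifi203; 7.89% of all genes) and 3 lower (Ifi27l2a, H2-D1 and H2-K1; 10.2%), so that 3 of 30 in each direction is near the background. At an unadjusted p under 0.05 there were 5 in each direction (10.9% and 16.6%). Ifitm1, a surface restriction factor, had 624 and 85.9 CPM in mural-like cells of the 20-week replicates and 34.7 at 2 weeks. In progenitor-like cells it had 0.513 to 2.24 CPM and in tenocyte-like cells 0 and 0.725 (log2 difference 6.01 ± 0.47, edgeR adjusted p = 9.5e-08). This call held in each of 10 alternative settings. Isg15 had 58.5 and 66.8 CPM in mural-like cells of the 20-week replicates and 19.9 at 2 weeks, above the progenitor-like level of its own library in all 3. The 20-week values rest on 6 and 7 UMIs in 3 cells each, of which the highest 2 cells held 5 and 6, and the 2-week value on 88 UMIs in 71 cells.

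H2-D1 had 234 and 220 CPM in mural-like cells of the 20-week replicates and 87.9 at 2 weeks, below both other classes in every library that could be compared (log2 difference -1.38 ± 0.34, adjusted p = 0.00813). H2-K1 was lower likewise, by -1.18 ± 0.32 (edgeR adjusted p = 0.0153). The calls of H2-D1 and H2-K1 held in 8 of 11 other settings. Both were lost without 20-week replicate 1, without the 2-week library and with sums thinned to the smallest. Ifi27l2a was lower by -2.39 ± 0.72 (edgeR adjusted p = 0.0266), a call kept in 7 of 11 other settings. Ifi203 was higher by 2.09 ± 0.41 (edgeR adjusted p = 0.00143), a call kept in each of 10. The mural-like level of Ifi203 at 2 weeks, 13.6 CPM, was however below the progenitor-like 26.5. A mean over classes can hide which class differs: the tenocyte-like levels of Isg15 and Ifi203, at or near 0, and the progenitor-like level of Ifi27l2a enter it, and mural-like against progenitor-like cells was not tested alone. The number called higher was 8 and lower 5 without 20-week replicate 2, where 1500 and 1416 of 12643 genes were called. Without replicate 1 they were 3 and 1 (794 and 820 of 11812 genes). Without the 2-week library they were 3 and 0 of 20 tested (240 and 224 of 5063 genes). Of other class I genes, 4 of 13 were lower in mural-like cells and 0 higher: H2-T23, Tapbp, Calr and Pdia3, the last 3 of which help load peptides. Of other interferon-stimulated genes, 5 of 25 were higher and 0 lower: Parp9, Iigp1, Slfn5, Mndal and Sp100. Of 12 sensors and adaptors, 3 were lower and 0 higher: Tmem173, Tlr2 and Tlr4. Socs1, 1 of 5 negative regulators, was lower too. Over all genes, 7.89% were called higher and 10.2% lower.

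**Figure D3:**
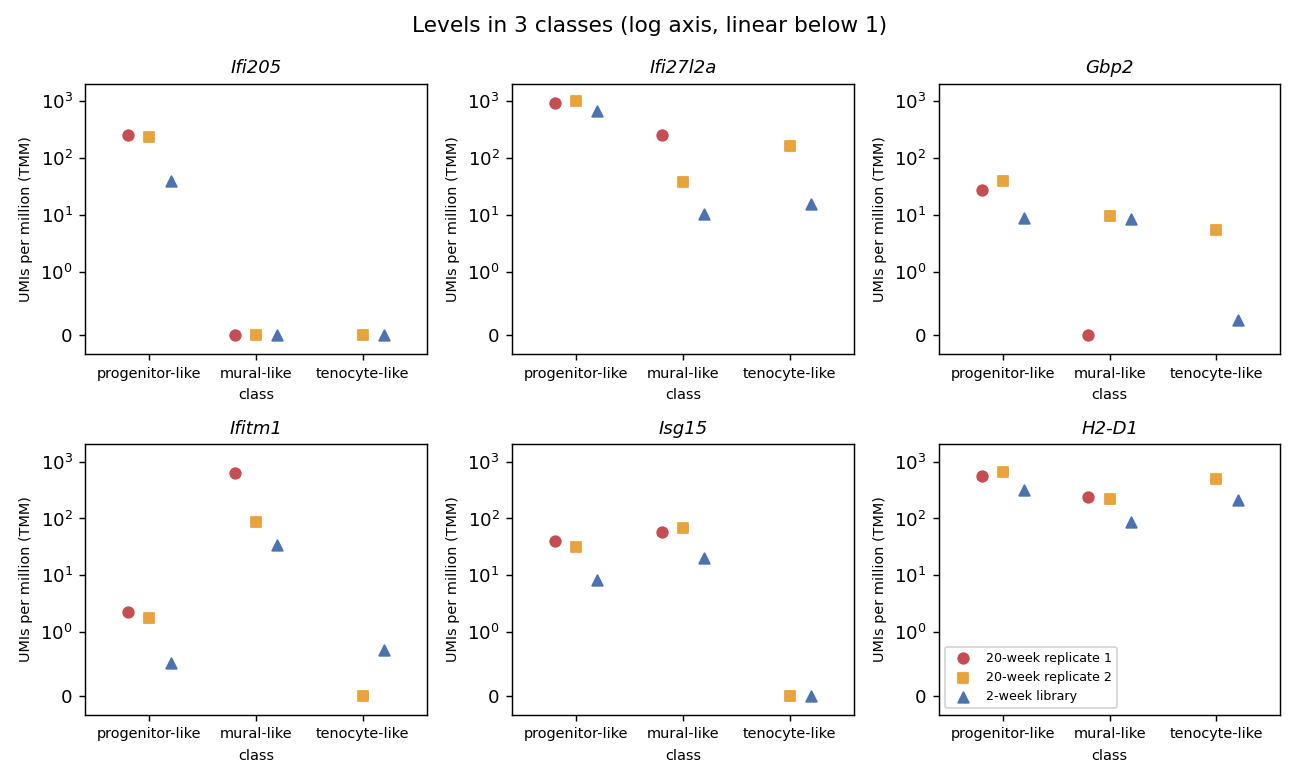
Levels of 6 genes in progenitor-like, mural-like and tenocyte-like cells (TMM-scaled CPM, log axis that is linear below 1), 1 point per library with the 20-week replicates left of the 2-week library; tenocyte-like cells of 20-week replicate 1 are not drawn. Ifi205 lies between 39.7 and 251 in progenitor-like cells and at 0 in the other 2 classes, and Ifitm1 between 34.7 and 624 in mural-like cells.

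Counted cell by cell, transcripts of 10 genes, here called effectors, were found in a minority of cells. They are Irf7 and the antiviral effectors without Ifi27 and Ifi27l2a (Ifit1, Ifit2, Ifit3, Isg15, Usp18, Rsad2, Oasl2, Xaf1 and Rtp4). With each cell thinned to 1000 UMIs, at least 1 effector was seen in 13.0% (21 of 162) and 15.1% (81 of 538) of progenitor-like cells of 20-week replicates 1 and 2, against 9.17% (76 of 829) at 2 weeks. The exact 95% binomial intervals were 8.21% to 19.1%, 12.1% to 18.4% and 7.29% to 11.3%. Without thinning the shares were 25.9%, 48.5% and 38.8%, an order that follows the median depths of 3010, 6158 and 7426 UMIs only in part. No cell was too shallow for the thinning.

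No test over libraries was made of these shares. In mural-like cells they were 15.9% (7 of 44) and 25.7% (9 of 35), against 5.74% (38 of 662), and in tenocyte-like cells 10.2% (5 of 49 in replicate 2), against 1.23% (8 of 653). Without thinning they were 22.7% and 34.3%, against 19.0%, in mural-like cells and 26.5%, against 11.3%, in tenocyte-like cells. For comparison in the 2-week library, chondrocyte-like cells had a thinned share of 2.54% at a median of 5454 UMIs before thinning, and cluster 13, led by Spp1 and Ibsp, had 0 of 149 cells, which allows up to 2.01% of cells with a UMI by the floor of 3 counts and 2.45% by the exact 95% interval. The tenocyte-like share at 2 weeks was not above the chondrocyte-like one. Free RNA was not measured, so these shares may hold transcripts that are not the cells' own, and its part in any of the shares was not tested.

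A small set of cells carried much of the effector signal. Cells with at least 3 of the 10 effectors, unthinned, were 1.23% (2 of 162) and 9.85% (53 of 538) of progenitor-like cells in 20-week replicates 1 and 2, against 4.34% (36 of 829) at 2 weeks. They held 20 of the 75 effector UMIs in replicate 1, 522 of 839 in replicate 2 and 252 of 648 at 2 weeks. After thinning, such cells numbered 0, 7 and 2.

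**Figure D4:**
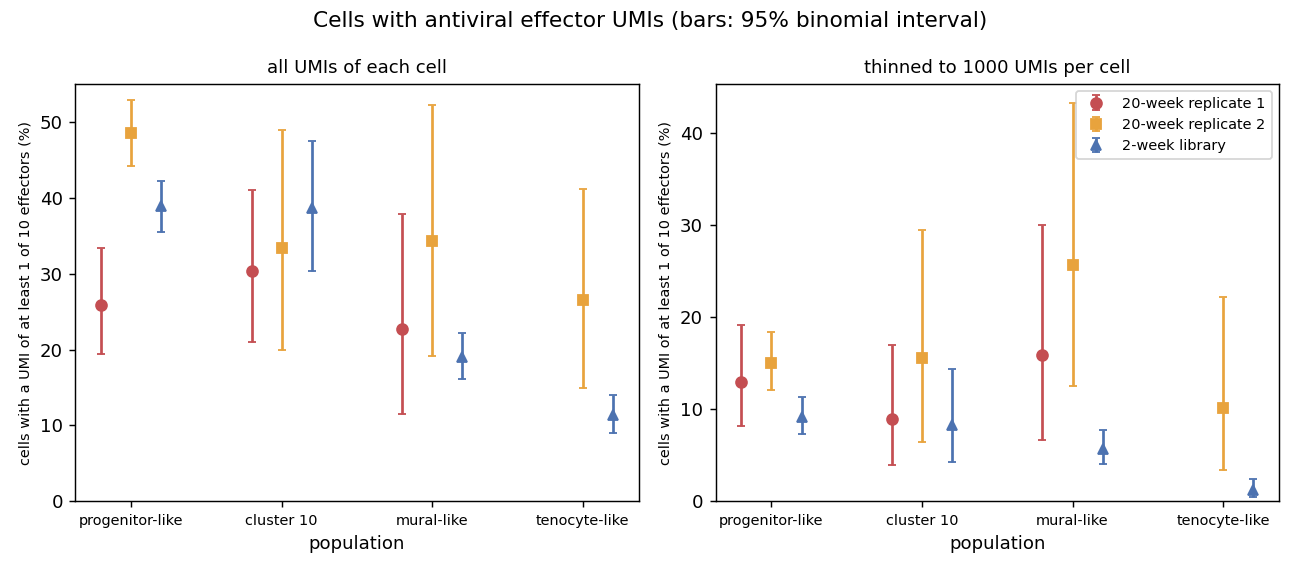
Share of cells (vertical axis, %) with a UMI of at least 1 of 10 effector genes (Irf7 included) in 4 populations, on all UMIs (left) and after thinning each cell to 1000 UMIs (right); points are libraries, with the 20-week replicates left of the 2-week library, and bars the exact 95% binomial interval. In progenitor-like cells replicate 1 is lowest of the 3 libraries unthinned and between the other 2 after thinning.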

How the data were processed

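Single-cell libraries of patellar tendon cells were analysed as the UMI count matrices the authors deposited, raw counts per gene and barcode. Per the submitters' processing notes, Cell Ranger 6.1.2 and mm10 were used. How replicates were handled upstream is not given in the sources used here.

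Barcodes were kept from 500 genes and 1000 UMIs upwards, where the mitochondrial share did not exceed 10%. The highest doublet scores were left out, in the number expected from loading (3 and 8 in the 20-week replicates, 197 in the 2-week library). Cells were clustered with scanpy 1.11.5 (2000 variable genes, 30 components, resolution 0.5, 19 clusters), with none of the 30 genes or of the listed pathway genes among the variable genes. A class takes its name from at least 2 markers among a cluster's 10 leading genes and at least 3 detected, so the names were rebuilt here and were not the authors'. Raw counts were summed per library and population of at least 20 cells and tested with edgeR 4.0.16 (quasi-likelihood, TMM, low counts filtered, Benjamini-Hochberg adjusted p under 0.05). DESeq2 1.42.0 was an alternative. The tests were checked on simulated counts.

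In age comparisons the lone 2-week library leaves 1 residual degree of freedom and its spread is taken to equal that of the 20-week pair. All age comparisons share that library, and sums over all cells, clusters and classes share cells. Class comparisons used 8 sums with library as a block. Tenocyte-like cells of 20-week replicate 1, planned for a test, were under 20 and were left out. All 30 genes are named. Values in every library are given for those called in any comparison and the 2 of each role with the highest mean count, and other values were chosen after they were seen. Other pathway genes are named where called in a main test by age or class, the interactions not included. Promoters and positions are from RefSeq GRCm38.p6 and GENCODE M21. The genes and lists were chosen with earlier results of these data known.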

Additional observations from a re-analysis of the deposited data

How the results depend on the processing

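Of 661 values recomputed under other settings, 543 were the same, 52 no longer passed, 11 newly passed, 51 moved further and 4 reversed. Among 568 values of single genes and medians, 474 kept their direction and side of the threshold or moved by less than the replicate spread. The rest were 93 counts of genes called and tenocyte-like medians. Of these, 69 were the same, which for a count means equal or close to the main count. Over all cells, where edgeR called 0 of the 30 genes, DESeq2 called 4, no filter on low counts 6, leaving out cells with blood or endothelial UMIs 3, and the fibroblast clusters alone 5. In the same order, 122 of 13155, 393 of 20835, 69 of 12883 and 230 of 12364 of all genes were called higher. In progenitor-like cells the 7 calls became 2 with DESeq2, 1 with sums thinned to the smallest and 3 at clustering resolution 1.0. Cluster 10, a separate population in which 5 of those 7 genes could be tested, gave 0. In the fibroblast clusters the 5 became 1 with DESeq2 and 0 with relative log expression factors. With thinned sums, which left 10 genes testable, the 9 genes higher in progenitor-like than tenocyte-like cells became 0, as did the 3 higher and 3 lower in mural-like cells. Leaving out a library gave 2 to 14, 3 to 8 and 0 to 5 calls for these. The tenocyte-like median of 1.27 was 1.17 with 20-week replicate 1 kept and 1.00 at resolution 1.0. It was 1.23 with a stricter cell filter, 1.25 without cells with blood or endothelial UMIs and 1.30 without the highest 10% of doublet scores. These medians are not all over the same genes: 13 in the main setting, 10 with replicate 1 kept and 16 at resolution 1.0. At resolution 1.0 the tenocyte-like cells of replicate 2 were 122 in place of 49, with a cluster of 72 led by Ibsp and Clu among them. Reversed were log2 ratios with a 20-week library left out: over all cells Ifitm1 (-1.28 without replicate 1, 2.51 without replicate 2) and Ifi27 (-0.60 and 0.59), and in progenitor-like cells Ifit3 (1.63 without replicate 1, -1.16 without replicate 2) and Xaf1 (0.70 and -0.38). Apart from the smaller number of genes under thinning, the cause was not tested.

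The fibroblast clusters, cluster 10 and the 3 libraries of tenocyte-like cells were added after seeing the data. The stricter cell filter was not run for mural-like cells and class comparisons, nor other tools for the untested tenocyte-like value. Age comparisons without a 20-week library gave values with no test. No paired analysis was possible, since the labels link no 20-week library to the 2-week library. Depth limits the 20-week tenocyte-like sum of replicate 1 most, at 22241 UMIs, and then the 20-week mural-like sums, at 95105 and 69103 UMIs. The tenocyte-like sum was planned for the tests but left out. With it kept, 22 genes were tested between classes. Of these, 8 were higher in progenitor-like than tenocyte-like cells (411 of 6774 genes). In mural-like cells 4 were higher and 2 lower (629 and 694 of 6774).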

Other observations

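A pair of MHC class II genes, outside the 30 genes and chosen after their values were seen, were found mainly in 20-week replicate 2. Cd74, the class II invariant chain, had 4 and 84 UMIs in 20-week replicates 1 and 2, against 3 at 2 weeks, and H2-Ab1 had 1 and 69, against 4. Others of the class were not: H2-Eb1 had 5 and 19 UMIs in the 20-week replicates, against 66 at 2 weeks, and H2-DMa 10 and 26, against 70. None of the 5 class II genes tested over all cells was called by edgeR. The B-cell gene Cd79a was likewise highest in replicate 2, with 740 UMIs, against 1 in replicate 1 and 7 at 2 weeks, and its part in the Cd74 and H2-Ab1 levels was not tested.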
